A study of Mus musculus with 4 samples.

Results

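The dual-specificity MAPK phosphatases are enzymes that switch off MAP kinases by removing phosphate from both the threonine and the tyrosine of the kinase activation loop. Their genes are mostly immediate-early genes, transcribed after the same signals that activate ERK, p38 and JNK, so the phosphatases act as negative feedback on these kinases. In myeloid cells some of them are known for limiting inflammatory cytokine output after stimulation. The 7 genes Dusp1, Dusp2, Dusp4, Dusp5, Dusp6, Dusp10 and Dusp16 were taken by symbol from the 53465 genes of the count table.

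The libraries came from myeloid-derived suppressor cells (MDSCs) sorted from the spleens of BALB/c mice carrying 4T1 tumors, a mammary carcinoma line grown in its own strain. The mice were male and 6 weeks old at injection, with no engineered allele named. All groups shared the tumor, the sort on Gr-1 beads and the culture. The control group received medium and the EGCG group received 5 µg/mL epigallocatechin-3-gallate, the main catechin of green tea, both for 6 h, with 2 libraries each. The sample labels place sacrifice at day 21 and the study's methods place it earlier. No source used here gives separate mice or separate wells for the 2 libraries of a group. The p-values therefore rest only on the spread between these libraries, which may be technical and which the fit shares across genes. The library totals ran from 17767318 to 18390385 reads assigned to genes. The granulocytic markers S100a8 and S100a9, which encode the calprotectin subunits of neutrophil-like cells, took between 3.79% and 5.37% of the counts. A lower level in such bulk RNA can be fewer cells of a type or less RNA per cell, which cannot be told apart.

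All 7 phosphatase genes passed the filter on low counts, and none changed past the threshold with EGCG. By edgeR's quasi-likelihood test, 0 of the 7 had an adjusted p under 0.05, whereas 0.15% of the 14682 tested genes did (0.136% lower and 0.0136% higher). DESeq2 called 0 of the 6 for which it gave an adjusted p, which it did not give for Dusp10. At an unadjusted p under 0.05, edgeR gave 1 member higher (Dusp2) and 1 lower (Dusp4) against a background of 12.2% of tested genes (5.22% higher and 7.02% lower), and DESeq2 gave 0. The estimates were higher for 3 members and lower for 4, with a median log2 fold change of −0.02, compared with 0.0031 over all tested genes, of which 49.4% were below 0. The 95% intervals of all 7 lay within 1.5-fold in either direction, with a spread shared across tested genes rather than each gene's own alone. An exact permutation test of 2 against 2 libraries cannot go below p = 0.333, so single-gene tests rested on the fit across all genes.

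**Figure D1:**
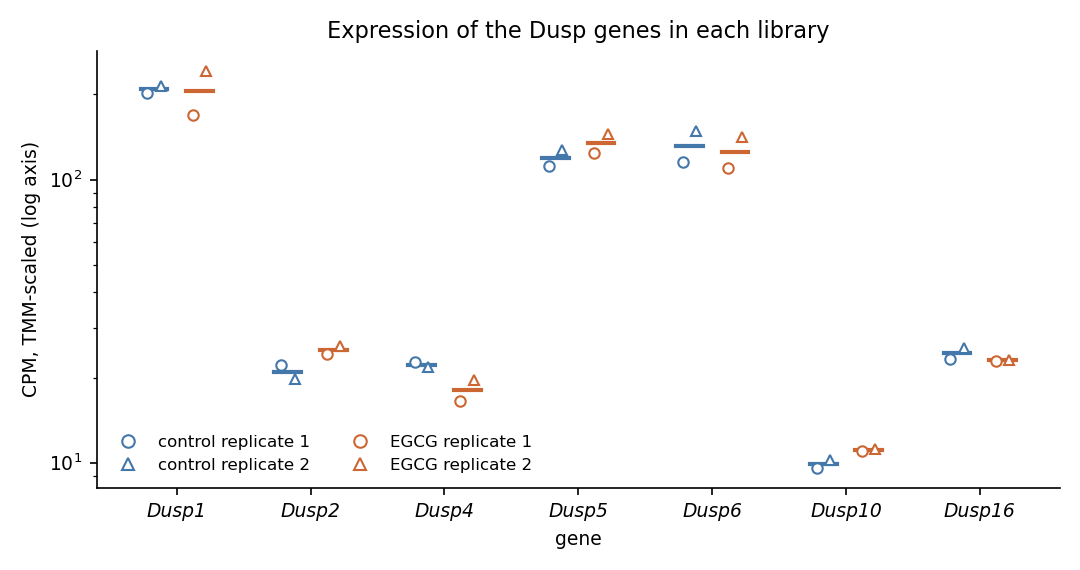
CPM (counts scaled to the library size, log axis) of the 7 phosphatase genes in each library, with points for libraries and bars for group means. Dusp1, Dusp5 and Dusp6 sat above 100 CPM in every library, Dusp2, Dusp4 and Dusp16 between 16.5 and 25.9 CPM, and Dusp10 between 9.58 and 11.2 CPM.

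Per kilobase of exon, the order of the genes was Dusp1, Dusp5, Dusp6, Dusp2, Dusp4, Dusp10 and Dusp16. Dusp1 had a mean of 62.6 CPM per kilobase (range over the 4 libraries 51.1 to 73.3), which was at percentile 94.0 of the tested genes. Dusp5 had 51.3 (45.0 to 58.5) and Dusp6 had 41.1 (35.1 to 47.3). Neighbours among these 3 overlapped in range, although the order held within every library. Dusp2 followed at 11.5 (9.89 to 12.9) and Dusp4 at 7.35 (6.02 to 8.25), whose ranges were apart. Dusp10 at 3.45 (3.15 to 3.68) and Dusp16 at 3.04 (2.93 to 3.27) overlapped. The length used was the union of all annotated exons, which for Dusp16 was 7798 bases against 2003 to 3311 for the others.

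Short stretches of the regulatory sequence around the 2 members highest per kilobase of exon show elements through which such genes are typically induced. The promoter windows (250 bases before to 50 after the RefSeq start, build GRCm38.p6) of 6 members were searched on both strands for 9 motifs, and Dusp4 was not matched. Dusp1, on chromosome 17, held a cAMP response element (TGACGTCA) and a further half-site (TGACG). The half-site was also in the windows of Dusp2, Dusp5 and Dusp16, and so in 4 of the 6. Dusp5, on chromosome 19, held 2 adjacent CArG boxes, the element bound by serum response factor. Capitals mark these words, each written 5′ to 3′ on the gene's strand.
Dusp1 half-site, chr17:26508649-26508673, minus strand: cctaggccgaTGACGtctttgcttt
Dusp1 full site, chr17:26508598-26508625, minus strand: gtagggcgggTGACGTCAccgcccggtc
Dusp5 CArG boxes, chr19:53529053-53529092, plus strand: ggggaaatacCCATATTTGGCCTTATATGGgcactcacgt

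The full cAMP response element was in 1.79% of 32817 promoter windows of that length, its half-site in 20.8% and a CArG box in 1.63%. The full element is a palindrome and holds 2 of the 3 half-sites counted for Dusp1. The other motifs were AP-1 (TGANTCA, 7.81% of windows), STAT (TTCNNNGAA, 8.29%), the kappaB site (8.46%), the GC box (GGGCGG, 35.6%), the E-box (CACGTG, 7.15%) and the TATA box (TATAAA, 13.6%). None of the 6 windows held the AP-1, STAT, kappaB or TATA letters. Dusp6 held none of the 9, and Dusp10 held only GC boxes. A match is a description of letters and not a measured site.

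The messages also differ in the ATTTA word, the core of AU-rich elements that mark short-lived mRNAs. The 3′ UTRs of Dusp1 and Dusp2 each held 4 such words, at 5.80 and 6.88 per kilobase, which placed them at percentiles 95.2 and 96.9 of 11919 tested genes. By the number of words alone both were at percentile 74.0, since their 3′ UTRs of 690 and 581 bases were shorter than the median of 947. The other 5 held 1 to 3 words, between 0.841 and 2.70 per kilobase, around the tested median of 1.21. For Dusp1 and Dusp2, which carry the densest sets, a short stretch with the most ATTTA words is shown, the first where several tie. Capitals mark ATTTA (GRCm38).
Dusp1, chr17:26506163-26506179, minus strand: ccttATTTATTTAacac
Dusp2, chr2:127338000-127338025, plus strand: attaATTTAattaattaATTTActat

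Dusp1 (ENSMUSG00000024190, chr17:26505590-26562128, minus strand) encodes the nuclear phosphatase MKP-1, which acts on p38, JNK and ERK. It was at 202.6 and 214.7 CPM in the control libraries and at 169.1 and 242.6 CPM in the EGCG libraries. The EGCG libraries held both the lowest and the highest value, so the groups overlapped. The means were 208.6 ± 8.51 and 205.9 ± 52.0 CPM (SD, n = 2), the log2 fold change was −0.02 (SE 0.12, 95% interval −0.28 to 0.24) and the adjusted p was 0.971. The EGCG libraries differed from each other by 0.52 on the log2 scale, more than the groups did. Without EGCG replicate 1 the estimate was 0.22 and without EGCG replicate 2 it was −0.30. Of its exonic bases, 11 are shared with other annotated genes in a count that does not use strand.

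Dusp2 (ENSMUSG00000027368, chr2:127336159-127338376, plus strand), also called PAC-1, is a nuclear phosphatase of ERK and p38 that is inducible in leukocytes. It was at 22.1 and 19.8 CPM in the control group and at 24.3 and 25.9 CPM in the EGCG group. Both EGCG libraries lay above both control libraries. The difference was 0.26 on the log2 scale (SE 0.11, 95% interval 0.03 to 0.49), a 19.8% higher estimate with an adjusted p of 0.355. The T cell markers summed to 98.1 and 109.4 CPM in the control group and to 111.6 and 115.7 CPM in the EGCG group, a small separation in the same direction. Of these 6 markers, 0 were called, 2 were higher and 1 was lower without overlap, and none was at 0. Over all tested genes, 21.5% were higher and 21.2% lower without overlap. The B cell sums overlapped between groups (364.1 and 385.8 CPM, then 413.6 and 378.1 CPM), as did those of granulocytic cells and erythroid cells, although 2 of 6, 4 of 9 and 2 of 4 of their tested markers were higher without overlap and none was lower. The sums also overlapped for NK cells, with 1 of 2 tested markers higher and 0 lower without overlap. They overlapped as well for 4T1 carcinoma cells, with 2 of 3 tested markers higher and 1 lower. The lists whose markers leaned lower without overlap are given with Dusp4 below, and no value here ties Dusp2 to any one list. The part of any of these cells in the Dusp2 level was not tested.

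Dusp4 (ENSMUSG00000031530, chr8:34807297-34819894, plus strand) encodes MKP-2, a nuclear phosphatase of ERK and JNK, and had the smallest unadjusted p of the 7. It was at 22.6 and 21.8 CPM in the control group and at 16.5 and 19.7 CPM in the EGCG group. Both EGCG libraries lay below both control libraries, and EGCG replicate 1 was the lowest. The difference was −0.30 on the log2 scale (SE 0.12, 95% interval −0.55 to −0.05), an estimate of 0.814-fold with an adjusted p of 0.332. Over the alternatives the adjusted p ran from 0.156 to 0.839, and without EGCG replicate 1 the estimate was −0.17. The endothelial markers summed to 113.9 and 126.0 CPM in the control group and to 94.2 and 98.6 CPM in the EGCG group, with 4 of 4 tested markers lower without overlap, 0 called and none at 0, where 21.2% of all tested genes were lower without overlap. The summed markers of monocytes (987.0 and 951.3 CPM in the control group, 903.4 and 902.7 CPM in the EGCG group) and of eosinophils, basophils and mast cells (1112 and 985.2 CPM, then 956.1 and 821.3 CPM) were also lower without overlap as sums. Of the single markers, 2 of 5 and 2 of 4 were lower without overlap, with 0 called and none at 0. So were those of platelets and megakaryocytes (36.3 and 39.3 CPM, then 32.43 and 31.97 CPM), with 1 of 4 markers lower without overlap. Of the macrophage markers 4 of 7 were lower and 1 was higher without overlap, while their sums overlapped (921.8 and 990.4 CPM, then 956.1 and 998.4 CPM). Of the dendritic cell markers 1 of 4 was lower and 0 were higher without overlap, and their sums overlapped. The lists whose markers leaned higher without overlap are given with Dusp2 above, and no value here ties Dusp4 to any one list. The part of any of these cells in the Dusp4 level was not tested.

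The genes whose pattern over the 4 libraries was most like that of Dusp4 were Clcn5, a chloride and proton exchanger of endosomes, Rrp15, a factor of ribosomal RNA processing, and Il11ra1, a receptor chain for interleukin 11. Among 9273 genes with at least 100 counts in every library, their root mean square distances from Dusp4 in centred log2 CPM were 0.0166, 0.0187 and 0.0195. With 4 libraries such likeness is a description.

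Dusp5 (ENSMUSG00000034765, chr19:53529109-53542431, plus strand) is a nuclear phosphatase specific for ERK. It was at 111.3 and 126.9 CPM in the control group and at 124.4 and 144.6 CPM in the EGCG group. The groups overlapped, since EGCG replicate 1 lay below control replicate 2. The difference was 0.18 on the log2 scale (SE 0.09, 95% interval −0.02 to 0.37) with an adjusted p of 0.466. Leaving out a library moved it between 0.064 (without EGCG replicate 2) and 0.28 (without EGCG replicate 1), with 0.089 without control replicate 1 and 0.27 without control replicate 2. Dusp5 shares 547 exonic bases with a gene annotated on the opposite strand that has no row of its own in the count table, so reads of that gene cannot be told apart from its own.

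Dusp6 (ENSMUSG00000019960, chr10:99263231-99267489, plus strand) encodes MKP-3, the cytoplasmic phosphatase of ERK and a widely used readout of ERK activity. It was at 115.7 and 148.2 CPM in the control group and at 110.1 and 141.2 CPM in the EGCG group. The libraries numbered 2 were above those numbered 1 by 0.36 on the log2 scale in each group, and the groups overlapped. The difference between groups was −0.07 (SE 0.12, 95% interval −0.33 to 0.19) with an adjusted p of 0.866. Without control replicate 2 the estimate was 0.12 and without EGCG replicate 1 it was 0.10.

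Dusp10 and Dusp16 encode MKP-5 and MKP-7, which act mainly on JNK and p38. Dusp10 (ENSMUSG00000039384, chr1:184013302-184075636, plus strand) was at 9.58 and 10.2 CPM in the control group and at 10.98 and 11.2 CPM in the EGCG group. The EGCG libraries were higher without overlap, by 0.17 on the log2 scale (SE 0.14, 95% interval −0.13 to 0.46, adjusted p = 0.680). It was the least counted member, with 175 to 200 reads per library, and 0.697% of its 31-base words also occur in other genes. Dusp16 (ENSMUSG00000030203, chr6:134715468-134792625, minus strand) was at 23.3 and 25.5 CPM in the control group and at 22.8 and 23.1 CPM in the EGCG group. The EGCG libraries were lower without overlap, by −0.09 on the log2 scale (SE 0.10, 95% interval −0.31 to 0.14, adjusted p = 0.794). Omitting control replicate 2 gave −0.020, omitting control replicate 1 gave −0.14, and a correction for gene length gave −0.021.

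**Figure D2:**
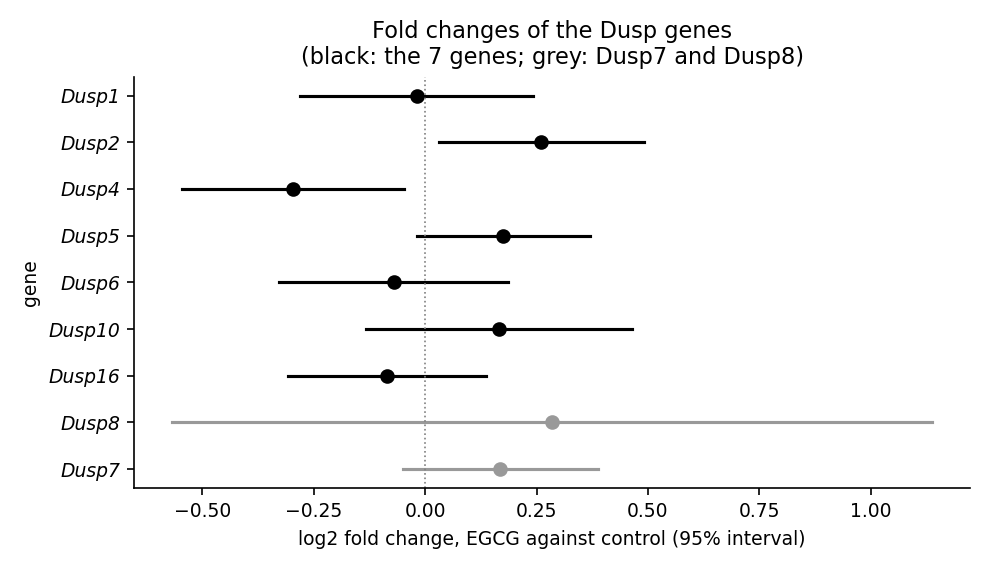
Log2 fold change of EGCG against control with 95% intervals from the edgeR fit for the 7 phosphatase genes (black) and the related Dusp7 and Dusp8 (grey). The intervals of Dusp2 (0.03 to 0.49) and Dusp4 (−0.55 to −0.05) leave out 0 before adjustment over all tested genes.

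Across the members, the groups did not overlap for 4 of 7, with 2 higher and 2 lower, against 42.7% of tested genes in either direction. For 4 of 7 the difference between groups was smaller than the larger difference between libraries of a group, as it was for 70.4% of tested genes. For 5 of 7, all but Dusp2 and Dusp4, the library numbered 2 was above the library numbered 1 in both groups, a pattern held by 26% of tested genes.

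**Figure D3:**
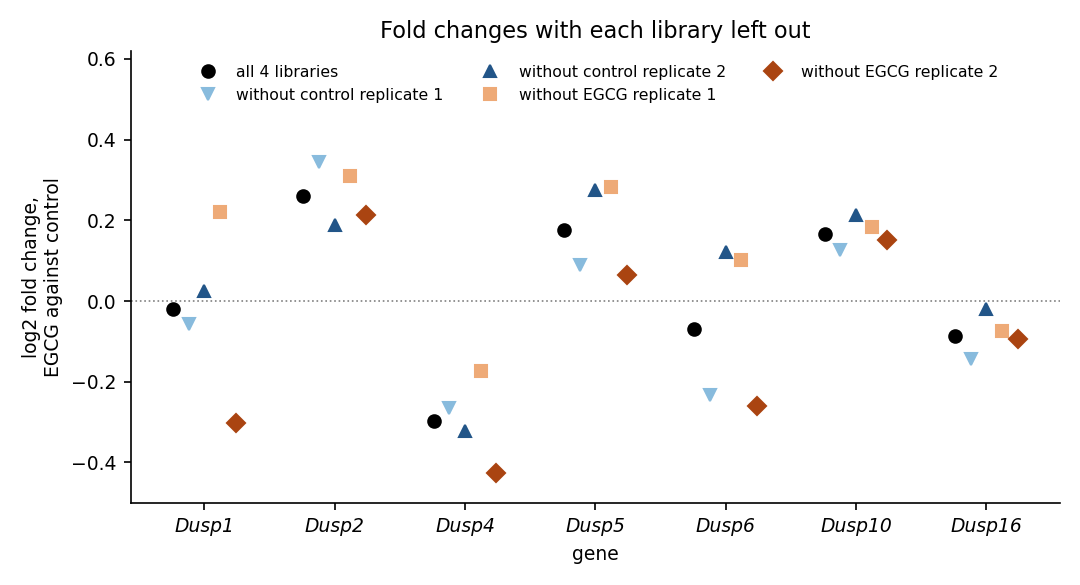
Log2 fold change of EGCG against control for each phosphatase gene with all 4 libraries and with each library left out in turn. Dusp1 spans −0.30 to 0.22 and Dusp6 −0.26 to 0.12, crossing 0, whereas the other 5 genes stay on one side.

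Of the 3 remaining typical MAP kinase phosphatases, only Dusp7 was counted at a level like that of the members. Dusp7, a cytoplasmic ERK phosphatase, was at 24.4 and 23.9 CPM in the control group and at 25.9 and 28.4 CPM in the EGCG group, a difference of 0.17 (SE 0.10, adjusted p = 0.550). Dusp8 had 19 and 23 counts in the control group and 17 and 34 in the EGCG group, with a log2 difference of 0.28 (SE 0.40, adjusted p = 0.829). Dusp9 had 6, 3, 4 and 4 counts and was not tested.

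The genes around the phosphatases were described through 11 lists. They cover the MAP kinase pathway and its targets, other phosphatases and glucocorticoid-induced genes, and 104 of the 117 listed genes were tested. Of these, 50 were higher, 54 lower and 0 past the threshold by edgeR, and 10 (9.62%) had an unadjusted p under 0.05, compared with 12.2% of all tested genes. DESeq2 called 0 of the 75 for which it gave an adjusted p. For comparison, 49.4% of all tested genes had an edgeR estimate below 0 and 0.15% passed the threshold. Among the MAP kinases 9 of 10 were tested, with 6 higher, 3 lower and a median log2 fold change of 0.06. Mapk3, which encodes ERK1, had 0.11 (adjusted p = 0.578), and Mapk7, which encodes ERK5, had 0.12 (adjusted p = 0.586). Of 7 MAP kinase kinases, 4 were higher, and Map2k1, which encodes MEK1, had 0.18 (SE 0.08, adjusted p = 0.403). Map2k3, a kinase of p38, had 0.09 (adjusted p = 0.662). Of 14 RAF and MAP kinase kinase kinase genes, 10 were lower with a median of −0.11, and the scaffold Ksr1 had −0.26 (SE 0.09, adjusted p = 0.267). Map3k2, which encodes MEKK2, had −0.20 (SE 0.08, adjusted p = 0.351), and −0.066 with a correction for gene length. The MAP kinase-activated kinases had 7 higher of 10 and a median of 0.04. Mknk2, a kinase of the translation factor eIF4E, and Mapkapk2, the p38-activated kinase MK2, each had 0.12 (adjusted p = 0.572 and 0.622). The groups overlapped for Mapkapk2, whose estimate ran from 0.019 without EGCG replicate 2 to 0.21 without EGCG replicate 1.

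Among the brakes other than the phosphatase genes in question, 5 of 6 tested inhibitors of the RAS-ERK pathway were lower. This list joins feedback inhibitors with the GTPase-activating proteins Rasa1 and Rasa2. Their median was −0.16 and 0 were past the threshold. Of these 6, 4 were lower and 0 higher without overlap, where 21.2% of all tested genes were lower without overlap. Spred1, which holds back RAF activation, was at 15.2 and 14.3 CPM in the control group and at 10.4 and 11.9 CPM in the EGCG group. Its groups did not overlap, and the difference was −0.41 (SE 0.13, adjusted p = 0.236). Rasa2, a GTPase-activating protein of RAS, had −0.22 (SE 0.10, adjusted p = 0.383), and −0.074 with a correction for gene length. Other phosphatases that act on MAP kinases had 7 higher of 9 tested and a median of 0.07. Without overlap, 6 of these 9 were higher and 1 was lower, where 21.5% of all tested genes were higher and 21.2% lower. Ppp2cb, a catalytic subunit of protein phosphatase 2A, was at 94.2 and 89.7 CPM in the control group and at 111.0 and 107.2 CPM in the EGCG group (log2 difference 0.25, SE 0.08, adjusted p = 0.224). Ppm1a, a phosphatase of the PP2C family, had 0.16 (SE 0.07, adjusted p = 0.403), and 0.29 with the length correction. The atypical dual-specificity phosphatases had 7 higher and 5 lower of 12 tested, with Dusp28 at 0.36 (SE 0.22, adjusted p = 0.561) and Dusp3, which encodes VHR, at −0.16 (SE 0.14, adjusted p = 0.698).

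Among the genes downstream, 18 of 19 targets induced by MAP kinases were tested, with 8 higher, 10 lower and a median of −0.02. Fosb, an immediate-early AP-1 subunit, was at 9.47 and 10.1 CPM in the control group and at 3.25 and 8.23 CPM in the EGCG group. Most of its difference of −0.77 (SE 0.28, adjusted p = 0.289) came with EGCG replicate 1, since the estimate without it was −0.25, whereas without EGCG replicate 2 it was −1.59 (adjusted p = 5.1e-08). Jund, another AP-1 subunit, had a difference in the opposite direction, 0.20 (SE 0.09, adjusted p = 0.364), which was 0.083 without EGCG replicate 2 and 0.32 without EGCG replicate 1. Another list held 11 inflammatory genes, cytokines and the cyclooxygenase gene Ptgs2, that some of the phosphatases are known to restrain. Of these, 9 were lower with a median of −0.15 and 0 were past the threshold. Cxcl2, a neutrophil chemokine, had −0.22 (adjusted p = 0.418), and without control replicate 1 its estimate was −0.39 (adjusted p = 0.0343), whereas without control replicate 2 it was −0.018. Tnf had −0.15 (adjusted p = 0.496), and −0.066 without control replicate 1. Of 6 glucocorticoid-induced genes, a class to which Dusp1 also belongs, 4 were lower, and Tsc22d3, which encodes GILZ, had 0.16 (SE 0.08, adjusted p = 0.453). Klf9, a transcription factor of the same list, had −0.23 (SE 0.13, adjusted p = 0.536), and for both genes the groups did not overlap.

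**Figure D4:**
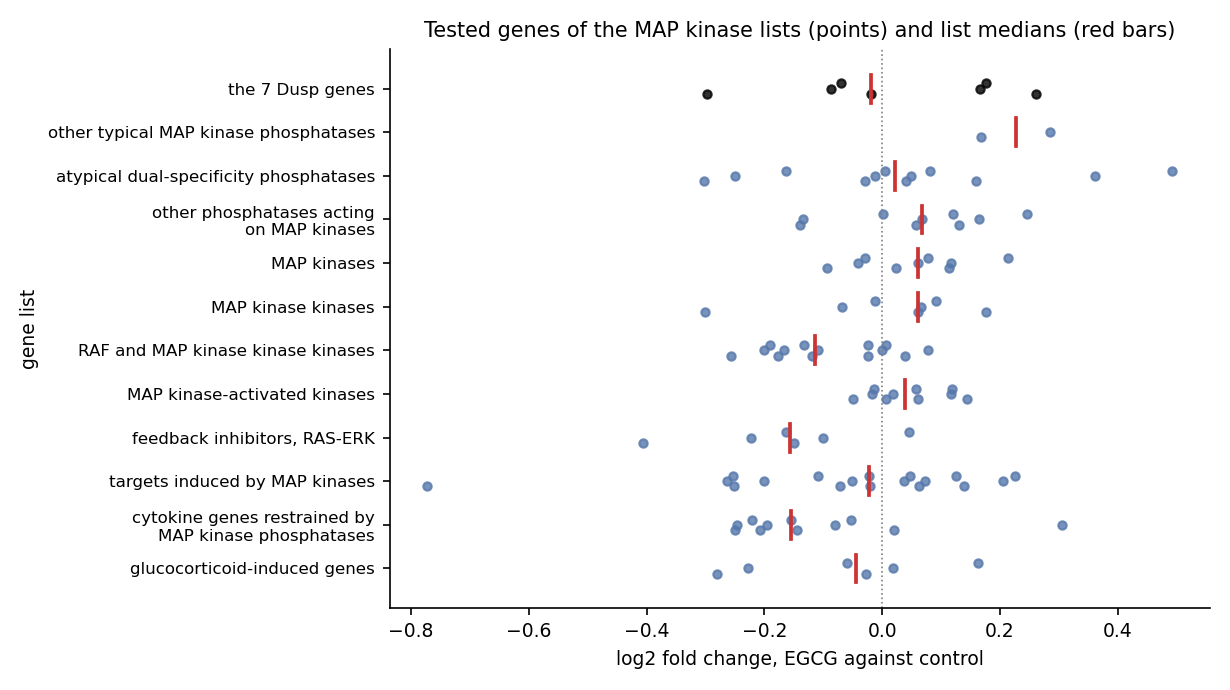
Log2 fold changes of EGCG against control for the tested genes of the MAP kinase and related lists (points) and their medians (red bars). List medians lie between −0.16 for the inhibitors of the RAS-ERK pathway (labelled feedback inhibitors) and 0.23 for the other typical phosphatases. The latter list has only 2 tested genes, Dusp7 and the low-count Dusp8. Of the listed genes, 0 of 104 were past the threshold.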

How the data were processed

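The authors aligned reads to GRCm38 with STAR 2.6.0c and counted them per gene with featureCounts 1.6.2 on Ensembl release 91, without strand, after demultiplexing with bcl2fastq 1.8.4. The deposited table holds raw counts for 53465 genes and 4 libraries. No row named no gene, and 53360 identifiers were found in GENCODE M21, which gave coordinates and exon lengths. Promoter windows came from RefSeq (GRCm38.p6).

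Counts were tested with edgeR 4.0.16 (quasi-likelihood, TMM, filterByExpr with a minimum count of 10, Benjamini-Hochberg adjustment over 14682 genes, two-sided, threshold 0.05) in R 4.3.3. The SE is the absolute log2 fold change divided by the square root of F. The code was tested on simulated data. CPM used library sizes scaled by TMM. Intervals use a spread estimated from these 2 libraries per group and drawn toward that of all tested genes, so they are not each gene's own spread alone. Alternatives were DESeq2 1.42.0, other filters, scalings and fits, a length correction, a replicate block and leaving out each library.

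The members and gene lists were chosen with earlier results of these data known. All 7 members were named, and from each list up to 2 genes with the smallest p and at least 10 counts in every library; Dusp7, Dusp8 and Dusp9 were always named, and the 3 genes most like the member with the smallest p. Fosb, Cxcl2 and Egr2 without single libraries were described after their values were seen. No gene was called in any list of cell type markers.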

Additional observations from a re-analysis of the deposited data

How the results depend on the processing

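None of the 7 phosphatase genes passed the threshold under any of 14 alternatives (DESeq2 gave Dusp10 no adjusted p), and 5 of 7 kept their direction under all of them. The exceptions were Dusp1, from −0.30 to 0.22 with a library left out, and Dusp6, from −0.26 to 0.12. Either was positive when control replicate 2 or EGCG replicate 1 was omitted. With each library left out in turn, the number of members lower ran from 2 to 4 and the median of the 7 from −0.094 to 0.18. Among the related genes, Dusp8 ran from −0.31 to 0.71 and Dusp3 from −0.40 to 0.13 with a library left out, and 0 to 2 pathway genes passed, namely Cxcl2 without control replicate 1 and Fosb and Egr2 without EGCG replicate 2 (Egr2 −0.45, adjusted p = 0.0169 by edgeR). In the main fit with all libraries, Egr2 had −0.25 (adjusted p = 0.383 by edgeR). With a library left out, Dusp7 was as low as 0.10, Map2k1 as low as 0.098, and Mapk7 ran from 0.057 to 0.19. Map2k3 was 0.056 with library size only. Members at an unadjusted p under 0.05 numbered 2, and 1 with library size only, 1 with length correction, 0 with DESeq2, 3 with the replicate block, and 3 with either EGCG library left out.

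Over all genes, 20 were lower and 2 higher. The lower calls numbered 0 with no filter, 135 with library size only, 9 with upper-quartile scaling, 49 with a robust fit, 50 with DESeq2, 6 with length correction and 72 to 235 with a library left out. The higher calls numbered 0 with no filter, 1 with at least 1 CPM in 2 libraries, 16 with library size only, 6 with the newer quasi-likelihood form, 14 with a robust fit, 14 with DESeq2 and 5 to 119 with a library left out. Where 1 library is left in a group, it is assumed to vary like the other group. The replicate block gave 24 lower and 6 higher; libraries sharing a number did not deviate together (Pearson 0.0336 over 14682 genes), so the numbers were not read as pairs. The cause of these differences was not tested.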
